A study of Mus musculus with 8 samples.

Results

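Described here are 10 genes that are targets of the tumor suppressor p53 or arrest cell growth, in gastrocnemius (GAS) muscle after prolonged knockdown of MYTHO (MYTHO-KD). They are *Cdkn1a*, *Cdkn2a*, *Mdm2*, *Ccng1*, *Bbc3*, *Bax*, *Gadd45a*, *Trp53inp1*, *Sesn1* and *Phlda3*. They were taken by name from the symbols of the array, where all 10 were found among 22664 genes, each on 1 of 22206 probe sets. A probe set is the group of probes that measures a transcript. Male C57/Bl6j mice were about 10 weeks old when both GAS muscles were injected with an adeno-associated virus (AAV) of serotype 1. One leg received AAV sh-RNA MYTHO, in which the U6 promoter drives a short hairpin RNA against the *Mytho* transcript, and the other leg received AAV sh-RNA scrmb, with a scramble hairpin behind the same promoter. Both groups therefore carried a virus, and muscle without virus is not among the samples. RNA of pieces of GAS was taken 12 weeks after injection, at 22 weeks of age, from 4 muscles per group, and hybridized to Clariom S Mouse arrays.

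p53 is a transcription factor that is held low by the ubiquitin ligase MDM2 and is stabilized when DNA is damaged or a cell is stressed. Its targets stop the cell cycle, repair DNA, restrain growth signaling or start apoptosis through the mitochondria. In skeletal muscle, whose fibers no longer divide, several of the same genes also respond to denervation, disuse and the FoxO factors, and *Cdkn1a* marks the exit of myoblasts from the cell cycle. *Cdkn2a* stands apart from the rest, since its products act upstream of p53 or through the retinoblastoma protein and mark senescent cells.

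For either group the authors deposited an average of the log2 signal and its standard deviation (SD), so each level below is the authors' average with the authors' SD over 4 arrays, and no value of a single array was used. Differences are MYTHO-KD minus scramble on the log2 scale with the standard error of limma's moderated test. A gene was called when it differed at least 2-fold with an unadjusted p under 0.05, and adjusted p-values are Benjamini-Hochberg values over all probe sets. The target itself, listed as *D230025D16Rik*, had 20.2% of its scramble signal in MYTHO-KD. Averages ran from 3.18 to 19.93 over all probe sets, the median SD was 0.27 in either group, and the median difference was -0.01. Levels of different probe sets are not comparable with each other. In RNA of muscle tissue, a change in the number of cells of a type and a change of RNA per cell cannot be told apart.

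*Cdkn1a* and *Phlda3* were higher in MYTHO-KD, each by about 3-fold, and the other 8 genes were not called. *Mdm2*, the feedback ligase of p53, was lower and *Bax* was higher, both by less than 2-fold. The arrest gene *Gadd45a*, the cyclin *Ccng1* and the apoptosis gene *Bbc3* differed by 0.13 or less on the log2 scale. Of the 10 genes 5 were higher and 5 lower, with a median difference of 0.005 beside -0.01 over all probe sets. This count includes *Cdkn2a*, which was marked as not expressed, and the median was 0.185 over the 8 genes left when *Cdkn2a* and *Bbc3*, the dimmest, were set aside. Called higher were 2 of the 10, where 0.86% of all probe sets were called higher, and called lower were 0 of 10, where 0.257% of all were. With the fold left aside, 3 genes were higher and 1 was lower at an unadjusted p under 0.05 (limma), beside 6.48% and 5.52% of all probe sets. At an adjusted p under 0.05 only *Phlda3* remained, beside 0.18% of all probe sets higher and 0.0946% lower. The genes were chosen with earlier results of these data known, so these shares describe them and do not test for an excess.

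**Figure D1:**
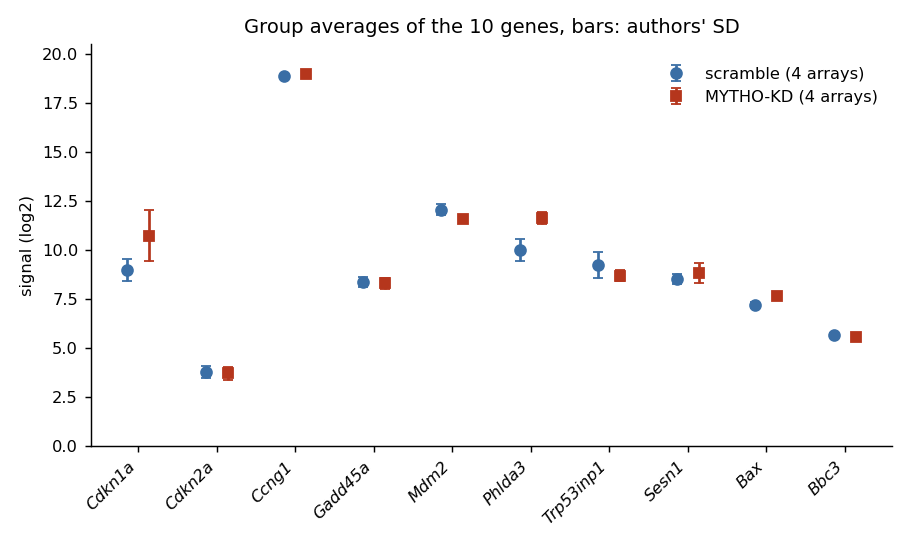
Authors' average signal (log2, y axis) of each gene in scramble (blue circles) and MYTHO-KD (red squares), with bars of the authors' SD over 4 arrays. *Phlda3* moves from 9.98 to 11.62 with bars clear of each other, while the bar of *Cdkn1a* in MYTHO-KD, with an SD of 1.29, is the longest of the plot.

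The promoters of both called genes are shown because the array reads only the transcript, and the sequence lets a reader see what each start site carries. The sequences are those of RefSeq (GRCm38.p6), which holds a promoter of 300 bases, 250 before and 50 after each start, for 9 of the 10 genes. Capitals mark matches to the p53 decamer, in which 3 purines are followed by C, 2 bases that are A or T, G and 3 pyrimidines. A p53 site is made of 2 such decamers, so 1 match alone is only a part of a site. The decamer reads alike on both strands, so 1 search covered both. The 250 bases before the first start of *Cdkn1a* lie at chr17:29090729-29090978 on the plus strand, and those before *Phlda3* at chr1:135765835-135766084 on the plus strand.
Cdkn1a: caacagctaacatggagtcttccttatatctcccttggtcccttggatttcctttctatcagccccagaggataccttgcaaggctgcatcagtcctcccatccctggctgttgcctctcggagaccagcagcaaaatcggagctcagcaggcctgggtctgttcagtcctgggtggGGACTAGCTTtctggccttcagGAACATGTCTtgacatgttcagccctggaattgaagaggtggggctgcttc
Phlda3: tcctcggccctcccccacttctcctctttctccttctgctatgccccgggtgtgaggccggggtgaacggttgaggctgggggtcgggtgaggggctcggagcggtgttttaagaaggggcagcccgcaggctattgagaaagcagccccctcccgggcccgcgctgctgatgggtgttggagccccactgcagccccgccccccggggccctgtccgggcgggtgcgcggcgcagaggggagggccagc

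The first start of *Cdkn1a* is followed by a second, 2790 bases downstream. The 2 decamers begin 73 and 51 bases before the first start and 2863 and 2841 bases before the second. They are separated by 12 bases, and the 10 bases right after the last one fit the decamer at 9 positions. No decamer was found in the window of *Phlda3*, whose 250 bases hold 71.2% G and C against 54.0% for *Cdkn1a*. Only 0.359% of the 32851 promoters of the table hold 2 or more decamers. At least 1 was found in 6 of the 9 genes, beside 9.55% of all 27025 genes, and in 6 of their 14 promoters, beside 8.36% of all promoters. Genes without one were *Phlda3*, *Cdkn2a* and *Bbc3*. The genes were picked by name as p53 targets or growth arrest genes, so these shares may follow from that choice and say nothing about MYTHO-KD. The other 5 genes with a match are shown as 30 bases around it, 5′ to 3′ on the strand of the gene, so that the decamers of genes that were not called can be read beside those of *Cdkn1a*.
Mdm2: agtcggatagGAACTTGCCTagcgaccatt
Ccng1: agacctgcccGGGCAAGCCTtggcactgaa
Bax: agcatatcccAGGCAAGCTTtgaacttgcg
Gadd45a: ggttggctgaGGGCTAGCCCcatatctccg
Sesn1: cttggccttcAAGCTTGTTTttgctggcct

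These windows lie at chr10:117710925-117710954 on the minus strand for *Mdm2*, chr11:40755452-40755481 on the minus strand for *Ccng1*, chr7:45467080-45467109 on the minus strand for *Bax*, chr6:67037428-67037457 on the minus strand for *Gadd45a* and chr10:41887256-41887285 on the plus strand for *Sesn1*. The match of *Sesn1* is at the second of its 2 starts. The core GTAAACA, bound by FoxO factors, was searched on both strands as well and was found in a promoter of *Mdm2*, *Bbc3* and *Sesn1*, beside 4.05% of all genes. A match is only a run of letters in this window, and binding was not measured.

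Of the 2 inhibitors of cyclin-dependent kinases, *Cdkn1a* was called and *Cdkn2a* was marked as not expressed. *Cdkn1a* encodes p21, which blocks cyclin-dependent kinases, and lies at chr17:29090979-29100722 (mm10). Its average was 8.98 in scramble with an SD of 0.58, and 10.73 in MYTHO-KD with an SD of 1.29. The difference was 1.75 (standard error 0.523), a 3.36-fold rise with a 95% interval of 1.53 to 7.41, and the unadjusted p was 0.0059 with an adjusted p of 0.200 (limma). Only 0.153% of probe sets had a larger positive difference. Only 0.187% of all group SDs were larger than that of *Cdkn1a* in MYTHO-KD, so the 4 muscles differed among themselves more than for almost any other gene, and which of them carried the rise was not tested. With unequal variances allowed, the unadjusted p of *Cdkn1a* was 0.0661 and its call was lost.

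*Cdkn2a* encodes p16 and, in another reading frame, p19ARF, and lies at chr4:89274471-89294653. The software marked it as not expressed in either group. Its averages were 3.78 in scramble with an SD of 0.31 and 3.70 in MYTHO-KD with an SD of 0.33, near the lowest of the array. No fold is given for it, since a small amount of this transcript could not be seen at this signal. It is the only one of the 10 genes without the mark of expression in both groups.

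The paralogues of these inhibitors, genes of like sequence and function, were measured too. *Cdkn1b*, which encodes p27, differed by -0.01 (95% interval -0.59 to 0.57), and *Cdkn1c*, which encodes p57, by -0.07 (95% interval -0.47 to 0.33). *Cdkn2b*, *Cdkn2c* and *Cdkn2d* differed by -0.10, -0.22 and -0.06, and all 5 of these inhibitors missed an unadjusted p of 0.05 (limma).

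*Ccng1* and *Gadd45a* are targets that slow the cell cycle. *Ccng1* encodes cyclin G1, which brings a phosphatase to MDM2, and lies at chr11:40748552-40755311. Its averages were 18.88 in scramble with an SD of 0.05 and 18.95 in MYTHO-KD with an SD of 0.12, a difference of 0.07 (95% interval -0.25 to 0.39, adjusted p = 0.910, limma). Only 38 probe sets had an average above 19, so *Ccng1* was among the brightest of the array, and a further increase of so bright a signal may not be visible. *Gadd45a* encodes a stress protein of DNA repair and arrest that is also induced in denervated muscle, and lies at chr6:67035096-67037457. Its averages were 8.37 in scramble with an SD of 0.27 and 8.31 in MYTHO-KD with an SD of 0.28, a difference of -0.06 (95% interval -0.49 to 0.37, adjusted p = 0.951, limma). Neither gene was distinguishable between the groups, and both intervals lie within 2-fold.

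Among their paralogues, *Gadd45b* was higher by 0.60 (95% interval 0.22 to 0.98) with an unadjusted p of 0.00509, and *Ccng2*, a FoxO target, differed by -0.48, with an unadjusted p of 0.0474. Their adjusted p-values were 0.194 and 0.411 (limma). *Gadd45g* had SDs of 1.07 in scramble and 1.36 in MYTHO-KD, and its interval from -1.64 to 1.12 leaves its direction undecided.

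*Mdm2* and *Phlda3* are targets through which p53 restrains itself and growth signaling. *Mdm2*, at chr10:117688875-117710758, encodes the ligase that marks p53 for degradation. Its averages were 12.04 in scramble with an SD of 0.28 and 11.57 in MYTHO-KD with an SD of 0.12, a difference of -0.47 (standard error 0.178). That is 0.722 of the scramble signal, with a 95% interval of 0.552 to 0.945, an unadjusted p of 0.0217 and an adjusted p of 0.322 (limma). The p53 targets *Cdkn1a* and *Phlda3* had higher averages in MYTHO-KD, and the part of p53 in any of these differences was not tested. *Mdm4*, a paralogue of *Mdm2* that also binds p53, differed by -0.17 (95% interval -0.53 to 0.19).

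*Phlda3*, at chr1:135766085-135769136, encodes a small pleckstrin homology domain protein that competes with AKT for membrane lipids. Its averages were 9.98 in scramble with an SD of 0.57 and 11.62 in MYTHO-KD with an SD of 0.30. The difference was 1.64 (standard error 0.269), a 3.12-fold rise with a 95% interval of 2.07 to 4.68. Its unadjusted p was 5.69e-05 and its adjusted p 0.0351 (limma), the 36th lowest p of all probe sets. Without moderation of the variances or with unequal variances allowed, the call at 2-fold was kept but no adjusted p of the 10 genes was under 0.05. The paralogues *Phlda1* and *Phlda2* differed by 0.01 (95% interval -0.33 to 0.35) and 0.20 (95% interval -0.17 to 0.57).

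**Figure D2:**
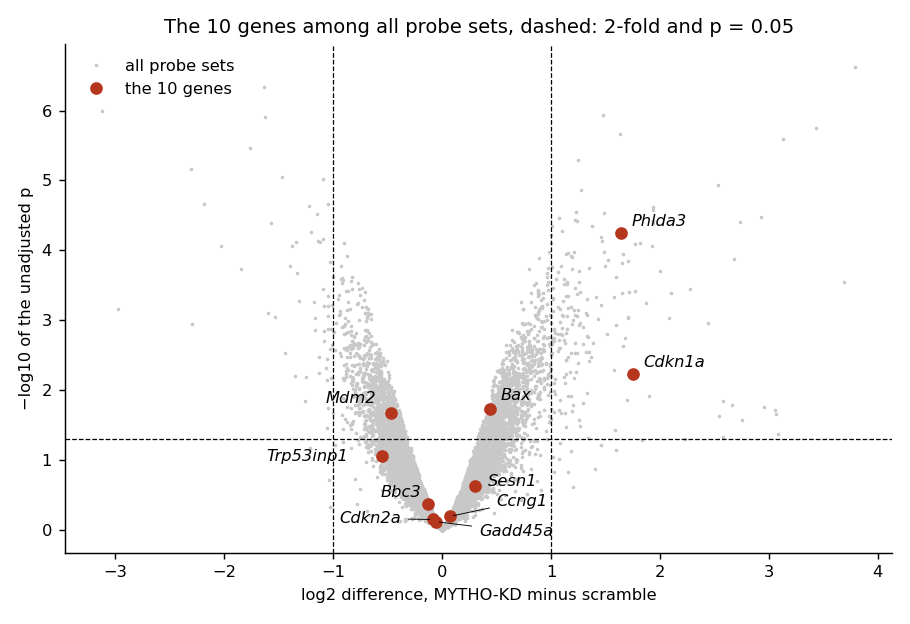
Difference (log2, MYTHO-KD minus scramble, x axis) against −log10 of the unadjusted p of the limma fit across all genes (y axis) for all 22206 probe sets in gray and the 10 genes in red, with dashed lines at both thresholds of the call. *Phlda3* and *Cdkn1a* lie past both lines on the right, *Bax* and *Mdm2* above the line of p but inside 2-fold, and the other 6 below it.

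*Trp53inp1* and *Sesn1* link p53 with autophagy and nutrient sensing. *Trp53inp1*, at chr4:11156431-11174379, encodes a stress protein that acts on p53 and in autophagy. Its averages were 9.24 in scramble with an SD of 0.67 and 8.69 in MYTHO-KD with an SD of 0.29, a difference of -0.55 (95% interval -1.20 to 0.10, adjusted p = 0.494, limma). This interval reaches past 2-fold, so a fall of that size could not be told from none. *Sesn1*, at chr10:41810574-41908436, encodes sestrin 1, which restrains mTORC1 when leucine is scarce. Its averages were 8.52 in scramble with an SD of 0.26 and 8.82 in MYTHO-KD with an SD of 0.49, a difference of 0.30 (95% interval -0.23 to 0.83, adjusted p = 0.690, limma).

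Among the paralogues of this pair, *Sesn3*, a sestrin induced by FoxO factors, went from 8.68 to 9.71 with SDs of 0.29 and 0.53. It was called higher by 1.03 (standard error 0.257, unadjusted p = 0.00179, adjusted p = 0.134, limma). *Trp53inp2*, which takes part in autophagosome formation and is abundant in muscle, went from 15.17 to 15.91, a difference of 0.74 (unadjusted p = 0.00373, adjusted p = 0.168, limma). *Sesn2* was marked as not expressed in either group. Of all 16 paralogues 3 were higher and 1 was lower at an unadjusted p under 0.05 (limma), 1 was called, and the median difference was -0.045. Over all probe sets 6.48% were higher and 5.52% lower at that p, and 0.86% were called higher. The 1 lower gene, *Ccng2*, was lost without moderation and with unequal variances. Whether a gene and its paralogue differed from each other in response was not tested.

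**Figure D3:**
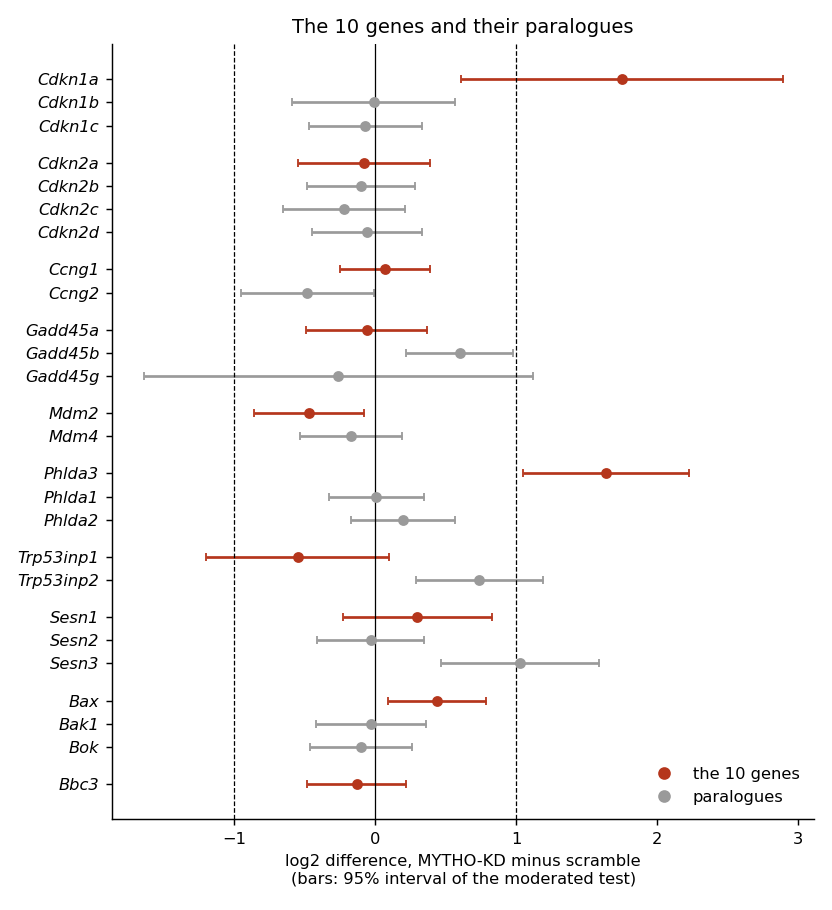
Difference (log2, MYTHO-KD minus scramble, x axis) of the 10 genes (red) and their paralogues (gray), with bars of the 95% interval of limma's moderated test and dashed lines at 2-fold. *Cdkn1a* and *Phlda3* stand to the right with paralogues near 0, and *Sesn3* and *Trp53inp2* stand to the right of *Sesn1* and *Trp53inp1*; *Cdkn2a* and *Sesn2* were marked as not expressed.

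*Bax* and *Bbc3* are the members that start apoptosis. *Bax*, at chr7:45461695-45466898, encodes a protein that opens the outer mitochondrial membrane. Its averages were 7.19 in scramble with an SD of 0.14 and 7.63 in MYTHO-KD with an SD of 0.17, a difference of 0.44 (standard error 0.161). That is 1.36-fold with a 95% interval of 1.06 to 1.73, an unadjusted p of 0.0186 and an adjusted p of 0.307 (limma). *Bbc3*, at chr7:16309583-16318334, encodes PUMA, which frees BAX from its inhibitors. Its averages were 5.67 in scramble with an SD of 0.08 and 5.54 in MYTHO-KD with an SD of 0.19, a difference of -0.13 (95% interval -0.48 to 0.22, adjusted p = 0.819, limma). The averages of *Bax*, *Mdm2* and *Phlda3* were apart by more than the sum of both SDs, which holds for 3 of the 10 genes and for 7.99% of all probe sets.

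None of 13 BCL2 family genes was called. An unadjusted p under 0.05 was found for 1, beside 6.48% of all probe sets higher and 5.52% lower. This was *Bcl2*, which protects mitochondria, with a difference of 0.55 (unadjusted p = 0.0280, adjusted p = 0.344, limma). Without moderation 0 genes were higher and 1 was lower at that p, and with unequal variances 0 were higher. The pore protein *Bak1* and the related *Bok* differed by -0.03 and -0.10. *Mcl1*, a survival protein, differed by 0.37 and *Hrk*, which promotes death, by 0.32, neither with an unadjusted p under 0.05.

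The factor itself and its regulators were measured as a list of 12 genes, of which 0 were called and 3 were lower at an unadjusted p under 0.05, with a median of -0.07. Of all probe sets 5.52% were lower at that p. *Trp53*, which encodes p53, went from 11.06 in scramble with an SD of 0.28 to 10.63 in MYTHO-KD with an SD of 0.17, a difference of -0.43 (unadjusted p = 0.0370, adjusted p = 0.381, limma). The ubiquitin ligase *Rchy1* differed by -0.52 (unadjusted p = 0.0167) and *Usp7*, which removes ubiquitin from p53 and MDM2, by -0.44 (unadjusted p = 0.0378). The family members *Trp63* and *Trp73* differed by 0.21 and 0.12. The activity of p53 rests largely on its protein, which the arrays do not measure.

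Of 27 other p53 targets, 2 were higher and 2 lower at an unadjusted p under 0.05, with a median of 0.01. These were 14.8% of the list, beside 6.48% of all probe sets higher and 5.52% lower at that p. *Eda2r*, a receptor of the tumor necrosis factor family, was called lower. It went from 10.80 in scramble with an SD of 0.50 to 9.73 in MYTHO-KD with an SD of 0.59, a difference of -1.07 (standard error 0.309, unadjusted p = 0.0048, adjusted p = 0.189, limma). *Tigar*, which slows glycolysis, differed by -0.71 (unadjusted p = 0.0129) and *Ei24*, an endoplasmic reticulum protein, by 0.42 (unadjusted p = 0.0207). The fourth gene under that p was *Btg2*, which is also in the next list, and the other 23 missed it. With unequal variances 1 of the 2 lower genes was left.

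Genes linked with growth arrest by name or function and pocket proteins of the retinoblastoma family made a list of 14. Of these 13 were higher, beside 46.9% of all probe sets with a positive difference. At an unadjusted p under 0.05 (limma) 4 were higher, beside 6.48% of all probe sets, and the median was 0.235. *Gas6*, the ligand of the receptors AXL and MERTK, was called higher by 1.15 (unadjusted p = 0.000868, adjusted p = 0.0993, limma). *Klf4* differed by 0.90 (unadjusted p = 0.0106) and *Btg2*, which holds back the cell cycle and is a p53 target as well, by 0.71 (unadjusted p = 0.0349). Without moderation 2 of the 4 were left, and with unequal variances 1.

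Of 21 proliferation genes 1 was higher and 2 lower at an unadjusted p under 0.05, and none was called, with a median of -0.13. The genes under that p were 14.3% of the list, beside 6.48% of all probe sets higher and 5.52% lower. The replication helicase subunit *Mcm2* differed by -0.47 (unadjusted p = 0.0189), the mitotic cyclin *Ccnb2* by -0.41 (unadjusted p = 0.0289) and the kinase *Cdk2* by 0.38 (unadjusted p = 0.0357), which was lost with a trend and robust fitting. All 5 genes of D-type cyclins and their kinases were higher, with a median of 0.49, and 3 had an unadjusted p under 0.05. These were *Cdk6* (0.42), *Ccnd2* (0.50) and *Ccnd1* (0.49), none at 2-fold and none with an adjusted p under 0.05 (limma). Without moderation or with unequal variances, 1 of the 3 was left.

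Secreted and other markers of senescence went both ways. Of 11, 2 were higher and 2 lower at an unadjusted p under 0.05, beside 6.48% and 5.52% of all probe sets. *Igfbp5*, which binds insulin-like growth factors and is abundant in muscle, went from 14.99 to 13.77 with SDs of 0.12 and 0.30, a difference of -1.22 (standard error 0.182, adjusted p = 0.0277, limma). *Timp1*, an inhibitor of matrix proteases, was called higher by 1.04 (unadjusted p = 0.0114, adjusted p = 0.256, limma), and *Il6* differed by -0.73 (unadjusted p = 0.0119). In scramble *Timp1* was marked as not expressed, at an average of 4.46. *Timp1* and *Il6* had averages under 6 in both groups, in the dim part of the scale, and the call of *Timp1* was lost without moderation, with unequal variances or with dim probe sets left out.

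Of 11 genes of the response to denervation and atrophy, 2 were called higher and 1 was lower at an unadjusted p under 0.05. At that p 5.52% of all probe sets were lower. The receptor subunit *Chrna1* was higher by 1.07 (unadjusted p = 0.00196) and the transcription factor *Runx1* by 1.22 (unadjusted p = 0.00215), with adjusted p-values of 0.141 and 0.146 (limma). The ubiquitin ligase *Trim63* differed by -0.44 (unadjusted p = 0.0372). *Gadd45a*, a member of the same response, differed by -0.06, as given above. Over the 124 pathway genes beside the 10 described here, 5 were called higher (4.03%) and 2 lower (1.61%), with a median difference of 0.015. Over all probe sets, 0.86% were called higher and 0.257% lower. The lists were chosen with earlier results of these data known, so the shares do not test for an excess. Among the 5 is *Timp1*, marked as not expressed in scramble.

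**Figure D4:**
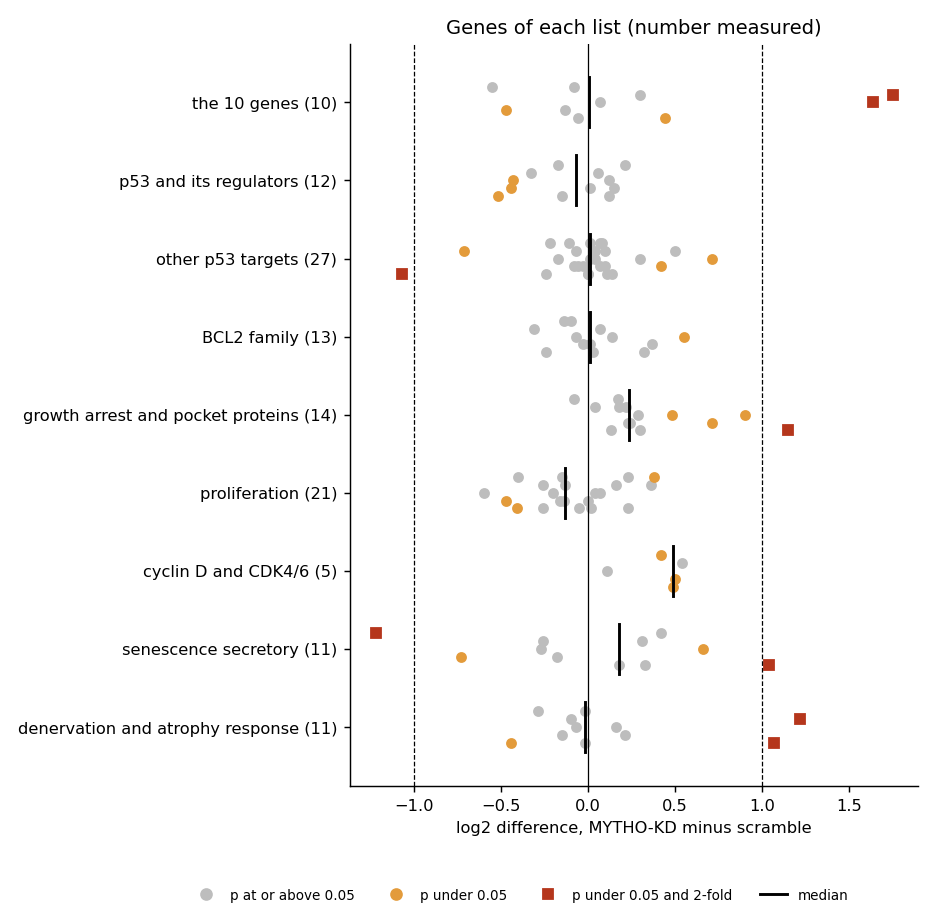
Difference (log2, MYTHO-KD minus scramble, x axis) of each gene of the lists, with the number measured in brackets, the median as a black bar, dashed lines at 2-fold and colors by the call of limma's moderated test. The 10 genes have a median of 0.005 with *Cdkn1a* and *Phlda3* far to the right, and the list of D-type cyclins and kinases lies right of 0 as a whole.

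Muscle tissue also holds cells other than fibers, and several of their markers were higher in MYTHO-KD, as *Cdkn1a* and *Phlda3* were. Of 11 macrophage markers 7 were higher at an unadjusted p under 0.05 (limma), beside 6.48% of all probe sets. All 11 were higher, with a median difference of 0.66. The median of their averages was 6.65 in scramble and 7.32 in MYTHO-KD, again levels of different genes. *Cd68* was higher by 2.53 (adjusted p = 0.0182), *Lyz2* by 1.94 (adjusted p = 0.0277) and *C1qb* by 1.27 (adjusted p = 0.0754, limma). Without moderation or with unequal variances, 3 of the 7 macrophage markers were left. All 7 fibroblast markers were higher, 2 of them called, beside 0.86% of all probe sets, with a median difference of 0.72. Their median average was 10.24 in scramble and 11.19 in MYTHO-KD, which are levels of different genes. *Lum* was higher by 1.49 and *Col3a1* by 1.43.

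The 6 endothelial markers had a median of 0.45, and 2 of them had an unadjusted p under 0.05 (limma), *Kdr* (0.75) and *Eng* (0.64), with 0 called. Of all probe sets 6.48% were higher at that p and 0.86% were called higher. Without moderation or with unequal variances, 1 of the 2 was left. Of 4 markers of regenerating fibers, *Mymk*, which fuses myoblasts and is listed as *Tmem8c*, was called higher by 1.77 and the embryonic myosin *Myh3* by 1.27, while *Mymx*, listed as *Gm7325*, differed by -0.01. Of these 2 calls 1 was left without moderation, with a trend and robust fitting, or with unequal variances. *Myh8* was at 19.93 with an SD of 0.00 in both groups, the top of the scale, and could not show a difference. The 5 satellite cell, 5 lymphocyte and 3 adipocyte markers had medians of 0.07, -0.23 and -0.33. None of these markers had an unadjusted p under 0.05 (limma) or a call under any alternative run. The lymphocyte list includes *Ptprc*, which marks white blood cells in general, macrophages included, and not lymphocytes alone. *Ptprc* differed by -0.02 (interval -0.37 to 0.33, limma), so it was not distinguishable between the groups, unlike several of the macrophage markers. The 7 myofiber markers had averages from 17.80 to 19.93, most of them above 19, and none had an unadjusted p under 0.05 (limma). *Acta1* and *Myh4* were at 19.93 with an SD of 0.00 in both groups, the top of the scale, and could not show a difference. The part of other cells in the rise of *Cdkn1a* and *Phlda3* was not tested.

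**Figure D5:**
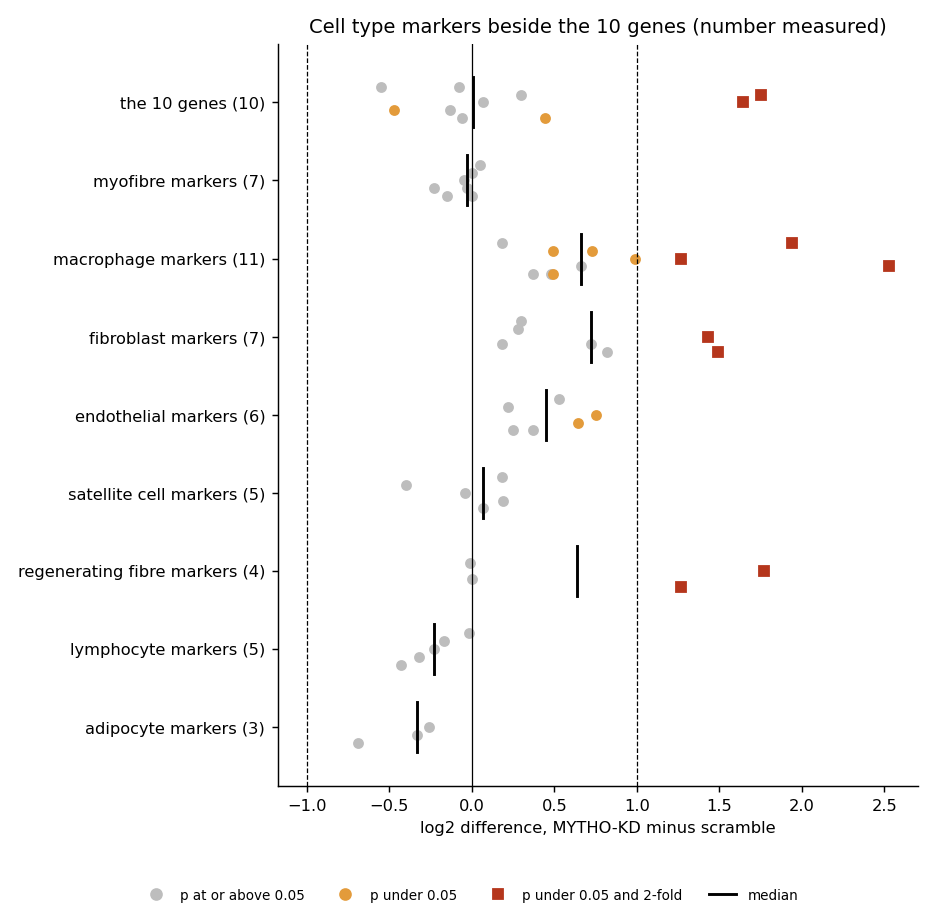
Difference (log2, MYTHO-KD minus scramble, x axis) of each cell type marker beside the 10 genes, with the number measured in brackets, the median as a black bar, dashed lines at 2-fold and colors by the call of limma's moderated test. Macrophage, fibroblast and endothelial markers lie right of 0 throughout, and lymphocyte and adipocyte markers lie left of it without passing the test. The lymphocyte list includes *Ptprc*, a marker of white blood cells in general.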

How the data were processed

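GAS muscles of 4 AAV sh-RNA MYTHO and 4 AAV sh-RNA scrmb samples were measured on Clariom S Mouse arrays. Per the paper's methods the authors processed them in the Transcriptome Analysis Console 4.0.1 with default parameters, and SST-RMA is named for the signals of their heatmaps, while the submitters' notes name Affymetrix Expression Console, RMA and mm10. The deposited log2 values are group averages and SDs written with a decimal comma, and whether the averages are plain means is not stated. Were they not, the p-values would be approximate. Of the 28 columns of the table, 0 hold single arrays, and the authors' fold changes, p-values and false discovery rates were not used.

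The planned fit on single arrays could not be made. limma 3.58.1 (R 4.3.3) was applied to averages and SDs: the variances of both groups were averaged (residual degrees of freedom 6) and shrunk by squeezeVar toward a prior SD of 0.284 with 5.85 degrees of freedom. The p-values are two-sided, unpaired, and adjusted over 22206 probe sets by Benjamini-Hochberg. Both legs of an animal were treated as independent. At 2-fold and an unadjusted p under 0.05 this fit called 191 probe sets higher and 57 lower. The paper reports fewer genes in either direction at these thresholds, so the calls here are not those of the paper. The script was tested on simulated arrays. Samples were grouped by their titles. A gene with several probe sets is given by the brightest, and older symbols (*Rfwd2*, *Tmem8c*, *Gm7325*) were matched through RefSeq. The members and gene lists were chosen with earlier results of these data known. Named are the 10 genes, the target, *Trp53*, paralogues, and in each list the called genes or those with the lowest p, up to 3. Genes named beyond this rule were chosen after their values were seen. Alternatives were variances without moderation, moderation with a trend and robust fitting, unequal variances, dim probe sets left out (mean under the 30th percentile, 5.715, which 8 of the 10 genes pass, all but *Cdkn2a* and *Bbc3*), 1 probe set per symbol and other thresholds. Arrays have no read depth, and 4 arrays per group limit the precision. Coordinates are those of the table (mm10) for genes and of RefSeq (GRCm38.p6) for sequences.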

Additional observations from a re-analysis of the deposited data

How the results depend on the processing

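No paired analysis was possible because the table holds group averages, and for the same reason the planned omission of each replicate and the replicate block were not run. Of the 2 genes called higher, 1 was still called with unequal variances and 1 at 2-fold with an adjusted p under 0.05, *Phlda3* in both cases. Of the 1 gene with an adjusted p under 0.05, 0 were left without moderation (t test on the averaged variances) and 0 with unequal variances (Welch t test). At an unadjusted p under 0.05 without moderation 3 genes were higher and 1 lower, and with unequal variances 2 and 1. The adjusted p of *Phlda3* ran from 0.00851 to 0.429 over the alternatives and its unadjusted p from 1.18e-05 to 0.00496. The unadjusted p of *Cdkn1a* ran from 0.00595 to 0.0661, that of *Bax* from 0.00715 to 0.0300 and that of *Mdm2* from 0.0163 to 0.0359. The other 32 of 36 counts over the 10 genes stayed within 1.5 times, and counts that were 0 and stayed 0 are among these 32. The median difference of the genes was 0.185 with dim probe sets left out, against 0.005 with all 10. The alternatives for single genes alter the variance or the set of genes fitted and not the difference, so they say nothing about its direction. Of 340 counts over the other lists, 312 stayed within 1.5 times, 27 were smaller and 1 was larger. Many of the 312 were 0 in the main fit and stayed 0, so they do not show how stable the other counts are.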
